A study of Canis lupus familiaris with 10 samples.

Results

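The 46 genes described here drive or carry out the cell division cycle, from the cyclins of G1 to the proteins that divide the cell. They were taken by symbol from a list of known roles, with no threshold on their values. All 46 were found among the 23266 symbols of the table and passed the filter on low values, which left 12397 genes. They were grouped by role into 5 genes of G1, 4 genes of the G1/S transition, 13 S-phase genes and 24 mitotic genes. The tissue was canine cutaneous histiocytoma (CCH), a benign tumor of Langerhans cell type in the skin of dogs that regresses as lymphocytes invade it. Archived paraffin blocks of 5 early tumors (group 1 of a histological staging scheme) and of 5 late tumors (group 3, labeled as lymphocyte enriched) were sequenced with QuantSeq, a 3′ RNA-Seq method for degraded RNA. The tumors came from pet dogs, and the labels give no genotype or treatment. The labels give ages of 0.5 to 5 years for 4 of the early dogs and 1.5 to 9 years for the 5 late dogs, which could not be linked to single libraries. The same holds for RNA quality, as the DV200 (the share of RNA in longer fragments, in percent) was 64.5 to 71.2 in early and 71.2 to 75.8 in late tumors, and its part in the results was not tested.

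Cells enter the cycle when D-type cyclins and their kinases phosphorylate the retinoblastoma protein and release E2F factors. E2F then turns on cyclin E and the genes that license and copy DNA, whose mRNAs peak around the start of S phase. A second wave, driven by FOXM1 and the B-MYB complex, supplies the cyclins, kinases and spindle proteins of G2 and mitosis. In a tumor infiltrated by lymphocytes, tumor cells and immune cells can both divide, and the RNA of a whole section does not separate them. Fewer dividing cells and less of an mRNA per dividing cell could not be told apart in these data either.

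The libraries held between 2973125 and 4439709 reads assigned to genes, of which between 9251 and 16732 fell on the 46 genes. A value is a read count divided by the size factor of its library, called normalized read count, and 3 reads correspond to 2.36 to 3.22 of it. QuantSeq reads 1 fragment near the end of each transcript, so the values do not grow with transcript length. The summed value of 12 T-cell markers was 84.7 to 2613 in early and 3996 to 6732 in late CCH, and all 12 had higher means in late CCH, with CD6 called by limma. None of the 12 was at 0 in every library, and for 10 of them the late values were all above the early ones. Of all genes tested, 2.17% were called by limma. The late values lay wholly above the early ones for 5.91% of all genes tested and wholly below for 6.05%. B-cell markers were higher in late CCH for 6 of the 7 that passed the filter, with none called, and the late values of MS4A1, CD79A and CD79B were all above the early ones. Their sum, of which CD22 was the largest part in most libraries, was 484 to 742 in early and 648 to 3298 in late CCH. The summed markers of the remaining cell types overlapped between the stages, with 1251 to 19231 and 958 to 10179 for keratinocytes, and with 2663 to 11752 and 6269 to 11885.5 for macrophages. The same held for endothelium, with 525 to 903 and 616 to 1310.1, and for fibroblasts, with 7831 to 60980 and 10886 to 36252. Gene by gene, all 10 keratinocyte markers that passed the filter had lower mean log2 values in late CCH. Those of 7 of 9 macrophage and 6 of 8 endothelium markers were higher, and those of 6 of 8 fibroblast markers lower. None of these was called by limma, but the late values of TP63 were all below and those of MSR1 all above the early ones. The Langerhans cell marker CD207 was not analysed here. Of the 7 other markers of Langerhans and dendritic cells that passed the filter, FLT3 and FCER1A fell in late CCH by limma's adjusted p. CD1A8 lay between 42.8 and 316 in early and between 0 and 35.8 in late CCH, whereas FSCN1 lay between 156 and 601 in early and between 781 and 1815 in late CCH. The sum of the list overlapped, with 1017 to 1612 and 1166 to 2336, but FSCN1 was its largest part in every late library. Of the 7 markers, 5 had lower and 2 higher mean log2 values in late CCH. Their log2(value + 1), centered per marker over 10 libraries and averaged, was 0.05 to 0.89 in early and −0.95 to −0.11 in late CCH. No RNA extraction batch of the study held tumors of both stages, so batch and stage could not be told apart.

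None of the 46 genes was called as different between late and early CCH, against 2.17% of all genes tested (1.06% with a higher and 1.11% with a lower late mean). A call needed an adjusted p of at most 0.05 (limma with Benjamini-Yekutieli (BY) adjustment) and a log2 fold change (log2FC, late minus early) of at least 1 in size. Without adjustment, 7 of the 46 genes (15.2%) had a p of at most 0.05, against 30.9% of all genes tested. This count depended on single libraries, with 4 genes without late library 4 (26.5% of all genes) and 13 genes without late library 5 (30.1%). The count of calls was also 0 with Benjamini-Hochberg adjustment in limma (9.04% of all genes), with edgeR (1.43%) and with DESeq2 (6.54%). At an unadjusted p of at most 0.05, edgeR and DESeq2 had 8 of the 46 genes each, against 30.3% and 31.5% of all genes. No gene of the list had its 5 late values all above or all below its 5 early values, whereas 5.91% of all genes tested lay wholly above and 6.05% wholly below. Differences were small as well as uncertain: 32 genes (69.6%) had a log2FC below 0.5 in size, against 58.5% of all genes, and 1 gene (2.17%) reached 1, against 15.9%.

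The estimates lay below 0 for 33 of the 46 genes (71.7%), against 50.2% of all genes tested, and above 0 for 13, against 49.8%. The median log2FC was −0.19 for the list and −0.004 for all genes. Under scaling to column totals, which moves the median of all genes to 0.09, the median of the list was −0.10. Late library 3 weighed most on this direction. Without it, 27 of the 46 estimates lay below 0 and the median log2FC of the list was −0.03. It was −0.12 without late library 4, −0.29 without late library 2 and −0.32 without late library 5.

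**Figure D1:**
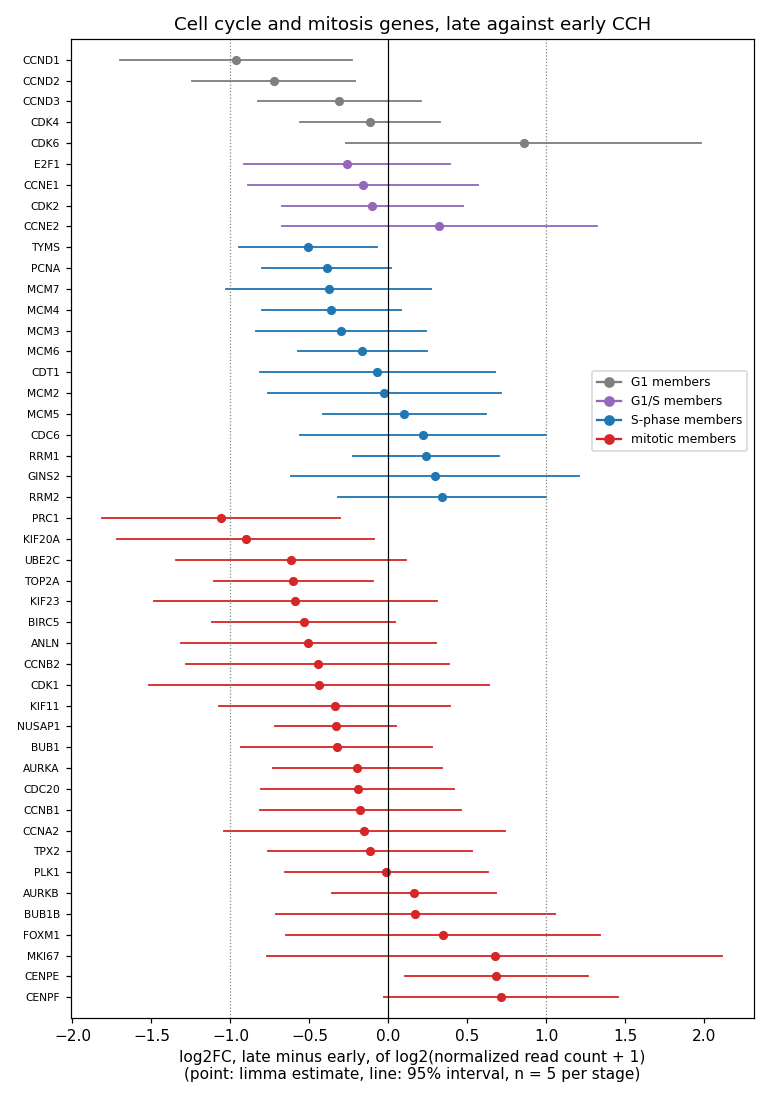
Log2FC of the 46 genes, late minus early, on the log2(normalized read count + 1) scale (x axis), with points for the limma estimate and lines for its 95% interval (n = 5 per stage). The colors mark the 4 roles and dotted lines mark a log2FC of 1 in either direction, and only PRC1 lies beyond one of them.

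Among the 5 genes of G1, the D-type cyclins had lower means in late CCH, and the cyclin D kinase CDK6 had a higher one. D-type cyclins link growth signals to the cycle and are not confined to dividing cells. Of the 5 genes, 4 had a log2FC below 0 with a median of −0.31, and 2 reached an unadjusted p of 0.05. CCND1, which encodes cyclin D1, had normalized read counts of 3016, 1331, 2449.7, 2883 and 2431 in early and 511, 1259.6, 2243, 1311 and 1276 in late CCH. Of the late libraries, 4 were below all early ones, but late library 3 lay among the early values. The log2FC of CCND1 was −0.97 ± 0.34 (SE), with an adjusted p of 0.712 in limma.

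CCND2, the gene of cyclin D2, which is prominent in lymphoid cells, had values of 1647, 1085, 921, 1503 and 1415 in early and 500.2, 873, 1265, 743 and 688 in late CCH. Again 4 late libraries were below all early ones and late library 3 was not. Its log2FC was −0.73 ± 0.24 with an adjusted p of 0.570 in limma. CCND3, the third D-type cyclin, had 327, 548, 289, 257 and 289.9 in early and 209, 319.7, 286, 190.2 and 361 in late CCH, and the stages overlapped widely, with a log2FC of −0.31 ± 0.24. In late library 3, where most other genes of the list were at their lowest, CCND1 and CCND2 were at their highest within the late stage.

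CDK4 and CDK6 encode the kinases that D-type cyclins activate. CDK4 had 183, 234, 161, 161 and 221 in early and 266, 149, 138, 158 and 187 in late CCH. The highest late value was above, and 3 late values were below, all of the early ones, and the log2FC was −0.12 ± 0.20. CDK6 had 58.1, 81.9, 111, 121 and 17.2 in early and 50.7, 135, 109, 119 and 254 in late CCH. Its mean was 77.9 ± 42.1 (SD, n = 5) in early and 134 ± 74.4 in late CCH. The difference rested on the extremes, 17.2 in early library 5 and 254 in late library 5, and the log2FC of 0.86 ± 0.52 had a 95% interval from −0.27 to 1.98.

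The G1/S genes showed no shared direction. E2F1, the activator of the S-phase genes, had values of 120.0, 102, 86.8, 83.5 and 83.7 in early CCH. In late CCH it had 105, 77.1, 58.1, 42.9 and 147. The early values were close together, while late libraries 2, 3 and 4 were below and late library 5 above all of them, with a log2FC of −0.26 ± 0.30. CDK2, the kinase partner of cyclin E, had 141, 124, 158, 99.2 and 114 in early and 184, 108, 73.6, 87.9 and 169 in late CCH. Its means of 127 ± 23.1 and 125 ± 49.2 were close, with a log2FC of −0.10 ± 0.26.

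The cyclin E genes pointed in different directions. CCNE1 had 34.3, 46.5, 72.4, 44.9 and 23.6 in early and 30.8, 60.9, 25.2, 38.9 and 37.8 in late CCH, with all late values inside the early range and a log2FC of −0.16 ± 0.34. CCNE2 had 86.6, 24.2, 109, 52.8 and 63.3 in early and 27.8, 106, 60, 107 and 126 in late CCH, with a log2FC of 0.32 ± 0.46. For CCNE2 the low values, 24.2 in early library 2 and 27.8 in late library 1, came from both stages. The median log2FC of the 4 G1/S genes was −0.13.

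The 13 S-phase genes comprise the sliding clamp PCNA, the subunits MCM2 to MCM7 of the replicative helicase, CDC6, CDT1 and GINS2, which load and activate it, and RRM1, RRM2 and TYMS, which make deoxynucleotides. Their median log2FC was −0.07, with 8 estimates below and 5 above 0, and only TYMS reached an unadjusted p of 0.05. TYMS, thymidylate synthase, had values of 327, 275, 289, 205 and 279 in early and 204, 205, 129, 177 and 269 in late CCH. Its mean was 275 ± 44.5 in early and 197 ± 50.7 in late CCH, and late library 5 lay among the early values. The log2FC of −0.51 ± 0.20 had an adjusted p of 1 in limma. In the RefSeq annotation of a more recent dog assembly, TYMS lies within 2 kb of ENOSF1, and whether reads were counted by strand is not stated.

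The subunits of ribonucleotide reductase, which acts further upstream in deoxynucleotide supply, pointed the other way. RRM2, its S-phase limited subunit, had 601, 445, 727, 521 and 449 in early and 700.0, 1022, 309, 601 and 1116 in late CCH. Late libraries 2 and 5 were above all early values and late library 3 was below all of them, and the log2FC was 0.34 ± 0.30. RRM1, the large subunit, had 344, 224, 348, 293 and 268 in early and 255, 436, 249, 369 and 473 in late CCH, with a log2FC of 0.24 ± 0.21. Late libraries 2, 4 and 5 were above all early values of RRM1, and neither subunit reached an unadjusted p of 0.05.

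PCNA had 1480.4, 1367, 1926, 1468 and 1254 in early and 1099, 1164, 831, 1026 and 1694 in late CCH. All late libraries but late library 5 were below the early range, and the log2FC was −0.39 ± 0.19 with an interval from −0.80 to 0.02. MCM7 had 243, 331, 295, 237 and 248 in early and 257, 256, 143, 104 and 379 in late CCH, with a log2FC of −0.38 ± 0.30. Late libraries 3 and 4 were low and late library 5 high in MCM7, a gene that overlaps AP4M1 in the more recent annotation. The other MCM genes ranged from a log2FC of −0.36 for MCM4 to 0.10 for MCM5. GINS2, a subunit of the active helicase complex, had 19.0, 12.1, 17.2, 37.8 and 25.8 in early and 27.8, 25.7, 11.6, 26.6 and 50.4 in late CCH, with between 12 and 48 reads a library and a log2FC of 0.29 ± 0.42. CDC6 and CDT1, which load the helicase, had a log2FC of 0.22 ± 0.36 and of −0.07 ± 0.34.

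The 24 mitotic genes had a median log2FC of −0.26, with 18 estimates below and 6 above 0. Of the 4 that reached an unadjusted p of 0.05, PRC1, KIF20A and TOP2A had lower and CENPE higher means in late CCH. For all genes, 15.3% reached it with a lower and 15.6% with a higher late mean. PRC1, which bundles the microtubules of the central spindle, had 154, 149, 103, 59.9 and 107 in early and 54.7, 89.4, 24.2, 51.1 and 59.8 in late CCH. All late libraries but late library 2 were below the lowest early value, 59.86 in early library 4. Late library 5, at 59.80, was below it by less than the value of 1 read there, 1.05. The mean was 115 ± 38.5 in early and 55.9 ± 23.3 in late CCH. The log2FC of PRC1, −1.06 ± 0.35, was the lowest of the 46, and its adjusted p was 0.563 in limma.

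KIF20A, a kinesin of the same structure that is needed for cytokinesis, had 79.0, 91.2, 109, 30.7 and 67.6 in early and 54.7, 44.7, 24.2, 22.5 and 50.4 in late CCH. Early library 4 was low here too, and lay among the late values. The log2FC was −0.90 ± 0.38 with an adjusted p of 1 in limma. The other genes of the central spindle and the cleavage furrow, KIF23 and ANLN, had a log2FC of −0.59 ± 0.41 and of −0.51 ± 0.37, neither with an unadjusted p of 0.05 or less. UBE2C, the ubiquitin-conjugating enzyme of the anaphase-promoting complex, had 308, 287, 394, 176 and 266 in early and 218, 261, 81.4, 136 and 303 in late CCH, with a log2FC of −0.62 ± 0.33 and an interval from −1.34 to 0.11.

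TOP2A and MKI67 are the genes most used as proliferation markers. TOP2A, which untangles sister chromatids, had 892, 880.2, 953, 584 and 742 in early and 507, 763, 296, 583 and 600.1 in late CCH. Late libraries 1, 3 and 4 were below all early values and the other two were inside the early range. Its mean was 810.2 ± 148 in early and 549.9 ± 169.7 in late CCH, and the log2FC was −0.60 ± 0.23 with an adjusted p of 0.984 in limma.

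MKI67, the gene of the Ki-67 antigen, had 9.52, 7.44, 23.5, 10.2 and 7.51 in early and 2.98, 20.9, 10.7, 47.0 and 43.0 in late CCH. These values correspond to between 3 and 46 reads a library, and late library 1 was at the level of 3 reads. Late libraries 4 and 5 were above and late library 1 below all early values, a range of 15.8-fold within the late stage. The log2FC of 0.67 ± 0.66 had an interval from −0.77 to 2.11, so that no difference in either direction was detected. The parts of read depth and of spread between tumors in this width were not tested. TOP2A and MKI67 had estimates of opposite sign, and the difference between them was not tested.

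The highest estimates among the mitotic genes were those of the kinetochore proteins CENPF and CENPE. CENPE, a kinesin that carries chromosomes to the spindle equator, had 94.2, 52.1, 67.8, 62.2 and 85.9 in early and 73.6, 135, 82.3, 151 and 157 in late CCH. Late libraries 2, 4 and 5 were above all early values and late libraries 1 and 3 were inside the early range. Its log2FC was 0.68 ± 0.27 with an adjusted p of 1 in limma. CENPF, which builds up in G2 and binds the outer kinetochore, had 259.9, 139.6, 219.8, 137 and 199.7 in early and 253, 483, 124, 402 and 426 in late CCH. The same 3 late libraries were above, and late library 3 was below, all early values, with a log2FC of 0.71 ± 0.34 and an interval from −0.03 to 1.45.

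FOXM1, the transcription factor of the mitotic genes, had 34.3, 12.1, 11.8, 26.8 and 19.3 in early and 24.9, 36.2, 8.72, 28.6 and 38.8 in late CCH. It was covered by 9 to 38 reads a library, and its log2FC of 0.35 ± 0.46 had an interval from −0.65 to 1.34. The cyclins of G2 and mitosis and their kinase had estimates between −0.45 for CCNB2 and −0.15 for CCNA2, with CCNB1 at −0.18 and CDK1 at −0.44. CDK1 was listed at 21.3 in early library 4 and between 90.5 and 118 in the other early libraries. Among the spindle kinases, AURKA had −0.20 ± 0.25, AURKB 0.16 ± 0.24 and PLK1 −0.01 ± 0.30. The checkpoint genes BUB1 and BUB1B had −0.33 ± 0.28 and 0.17 ± 0.41, and CDC20, which they restrain, had −0.19 ± 0.28. The remaining mitotic genes TPX2, KIF11, NUSAP1 and BIRC5 had estimates between −0.54 and −0.12.

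**Figure D2:**
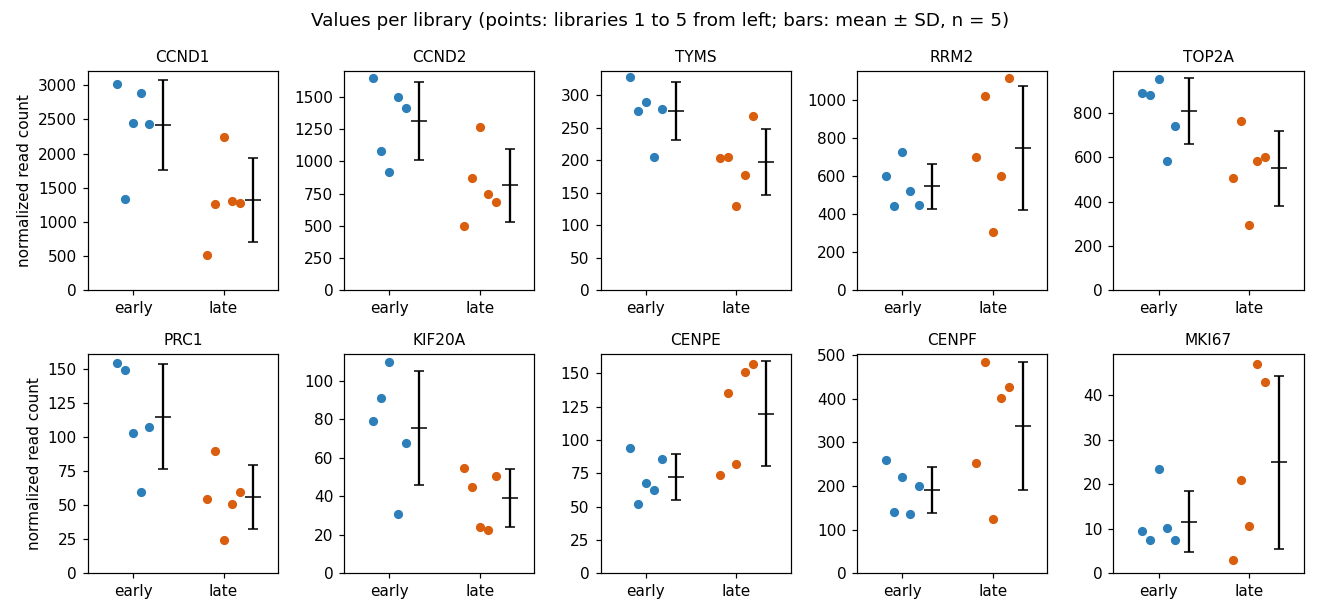
Normalized read counts (y axis, from 0, a scale of its own in each panel) of 10 genes in the 5 early and the 5 late libraries, in the order of library number from left, with the mean and SD of a stage beside its points. In every panel the ranges of the stages overlap, as for CENPF, whose late values run from 124 to 483 around early values of 137 to 259.9.

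S-phase and mitotic genes were then compared library by library, with a score for each role. For this, log2(value + 1) was centered on the 10-library mean of its gene and averaged over the genes of the role. The S-phase score was 0.21, 0.01, 0.09, −0.10 and −0.02 in early and −0.07, 0.18, −0.74, −0.16 and 0.59 in late CCH. The mitotic score was 0.27, 0.16, 0.29, −0.34 and 0.12 in early and −0.11, 0.40, −0.96, −0.19 and 0.37 in late CCH. Both scores were lowest in late library 3, and both had late libraries above and below all early ones. The scores had the same sign in every library except early library 5.

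The S-phase score minus the mitotic score was −0.06, −0.15, −0.20, 0.24 and −0.13 in early and 0.05, −0.21, 0.22, 0.03 and 0.22 in late CCH. The mean was −0.06 ± 0.17 (SD, n = 5) in early and 0.06 ± 0.18 in late CCH. The difference of 0.12 is smaller than the SD within either stage. Early library 4 had the highest difference of all and late library 2 the lowest, so the stages overlapped over nearly their whole range. Leaving out each library in turn gave a difference between 0.08 and 0.20. The genes were picked as a group with known roles, and no p-value is given for their scores.

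**Figure D3:**
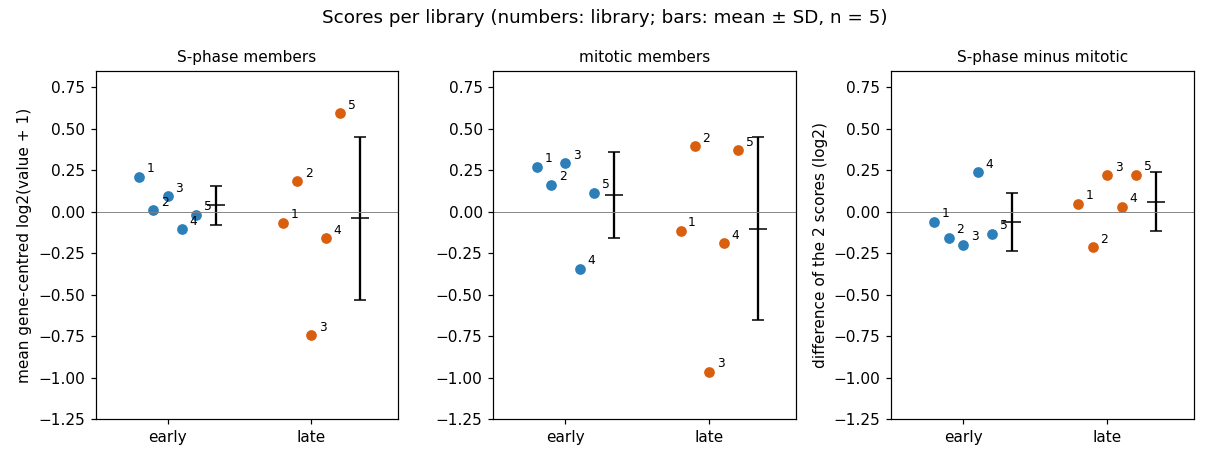
Score of the 13 S-phase genes (left), of the 24 mitotic genes (middle) and their difference (right) in each library, as mean gene-centered log2(value + 1) on the y axis, with library numbers at the points and the mean ± SD of 5 libraries as bars. Late library 3 is lowest in both scores, at −0.74 and −0.96, and the stages overlap in all 3 panels.

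The libraries differed more than the stages did. Late library 3 had the lowest value of all 10 libraries in 27 of the 46 genes (58.7%), namely 10 of the 13 S-phase and 15 of the 24 mitotic genes, against 10.4% of all genes tested. Late library 5 had the highest value in 20 of the 46 genes (43.5%), among them 9 S-phase and 8 mitotic genes, against 9.91% of all genes. PCNA shows both ends, with 831 in late library 3 and 1694 in late library 5, and RRM2 does so with 309 and 1116. The counts were also 27 and 20 under TMM and RLE scaling, and 25 and 21 under scaling to column totals, a comparison added after the data had been seen. Together the 46 genes took between 0.286% of the reads, in late library 3, and 0.474%, in early library 1.

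In late library 3 the summed value of 10 B-cell markers was 3298, the highest of the 10 libraries, and that of 12 keratinocyte markers was 958, the lowest. Its T-cell markers summed to 3996, the lowest of the late libraries, while late library 5 had 5728. The part of these cell types in the low values of late library 3 was not tested. Other genes of the same processes were low in this library too. Among 45 other replication genes late library 3 was lowest in 15 (33.3%), and among 69 other mitosis genes in 34 (49.3%), against the 10.4% of all genes. Late library 5 was highest in 20 and in 22 of these genes.

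Within early CCH, early library 4 had the lowest value of the stage in 24 of the 46 genes, 15 of them mitotic, against 23.9% of all genes tested. Early library 3 had the highest in 23, again 15 of them mitotic, against 16.9% of all genes. CDK1, CCNA2, KIF20A and PRC1 all had their lowest early value in early library 4. That library also had the highest summed keratinocyte markers, 19231. Early library 1 came next with 15257, and it had a mitotic score of 0.27 and no gene of the list at its lowest. The part of keratinocytes in these low values was not tested either.

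**Figure D4:**
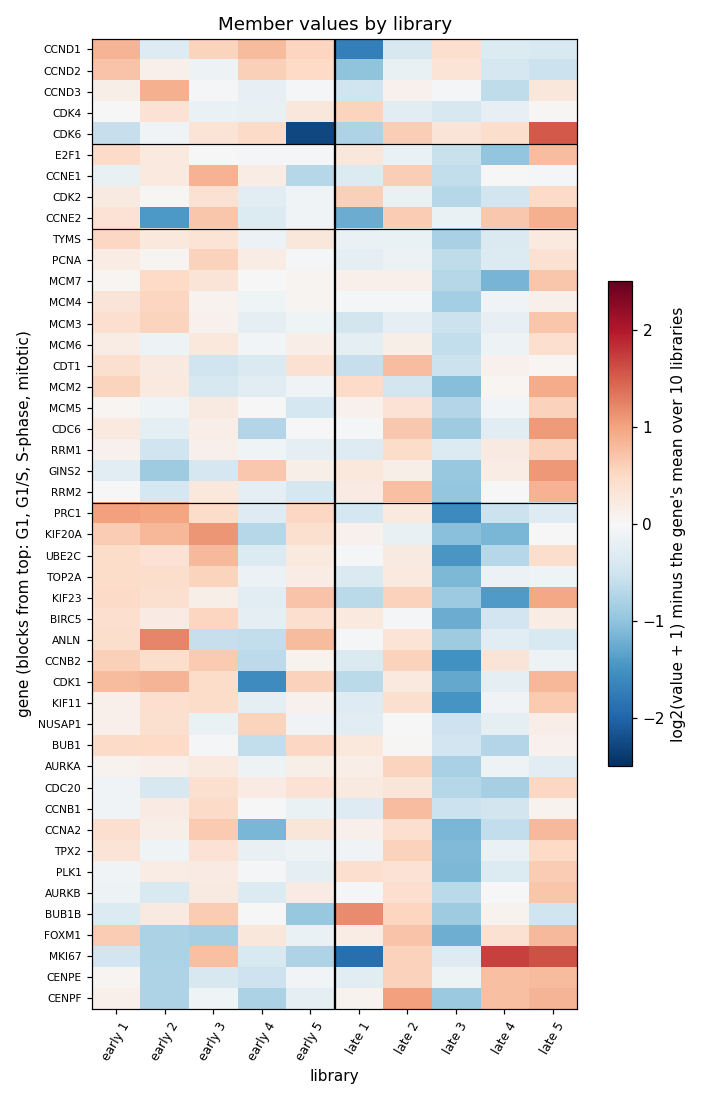
Log2(value + 1) of the 46 genes, centered on each gene's mean over all libraries, as color (red above and blue below the mean), with libraries in columns and genes in rows, in blocks of G1, G1/S, S-phase and mitotic genes from the top. The column of late library 3 is blue in nearly every S-phase and mitotic row, where it holds the lowest value for 10 of 13 and 15 of 24 genes, and is not blue for CCND1 and CCND2.

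The spread within a stage was wider in late CCH for most of the list. The SD of log2(value + 1) was larger among late than among early libraries for 38 of the 46 genes (82.6%), against 48.5% of all genes tested. The median SD of the 46 genes was 0.35 in early and 0.62 in late CCH, and that of all genes was 0.42 and 0.41. All 13 S-phase genes had the wider spread in late CCH, and 19 of the 24 mitotic genes. E2F1 is an example, with an SD of 0.23 in early and of 0.69 in late CCH, while CDK6 went the other way with 1.12 and 0.82.

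Late library 3 accounted for part of this width. Without it the late spread was wider for 31 of the 46 genes (67.4%), against 44.6% of all genes, and the median SD in late CCH was 0.44. For the mitotic genes the count was then 14 of 24, and for the S-phase genes 11 of 13. Without late library 5 the count of S-phase genes was 10 of 13. Leaving out early library 4 instead raised the count to 41 of the 46 genes (89.1%), against 54.6% of all genes. The mitotic count was then 23 of 24. The counts without single libraries were added after the data had been seen, and no test of the spread was made.

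**Figure D5:**
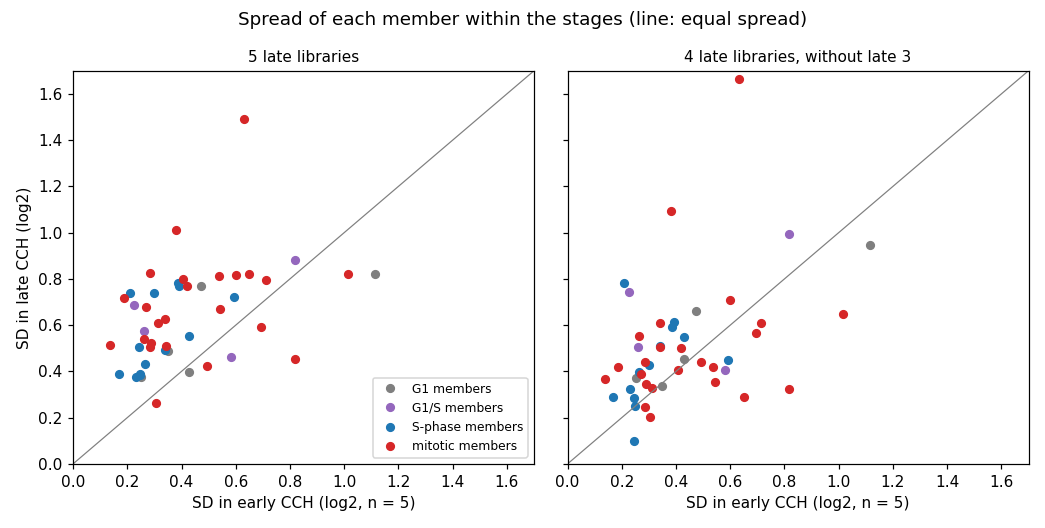
SD of log2(value + 1) of each of the 46 genes among the early libraries (x axis) and among the late libraries (y axis), with all 5 late libraries (left) and without late library 3 (right), colored by role, and a line for equal spread. Of the points 38 lie above the line on the left and 31 on the right.

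Genes of the same machinery outside the list gave 1 call. All 45 other replication genes passed the filter and none was called, with 12 (26.7%, against 30.9% of all genes) at an unadjusted p of 0.05 or less (8 with a higher and 4 with a lower late mean) and a median log2FC of −0.01. The count was also 0 with edgeR and DESeq2, with 9 and 8 genes at an unadjusted p of 0.05 or less, against 30.3% and 31.5% of all genes. The estimates ran from −1.23 ± 0.58 for RFC4, a subunit of the clamp loader, to 1.39 ± 0.41 for CDC45, the helicase cofactor that joins MCM and GINS. CDC45 had 20.9, 16.7, 21.7, 33.9 and 10.7 in early and 61.6, 48.5, 25.2, 47.0 and 115 in late CCH. Late library 3 was the only late library inside the early range, and the adjusted p was 0.379 in limma.

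Of 69 other mitosis genes, all passed the filter and KIF18A fell in late CCH, a single call where 2.17% of all genes were called. KIF18A is a kinesin that dampens the movements of chromosomes at the spindle equator. It had values of 135, 99.6, 81.4, 77.2 and 97.7 in early and 34.8, 27.6, 32.9, 47.0 and 49.3 in late CCH. The stages did not overlap, with means of 98.2 ± 22.9 and 38.3 ± 9.40 (SD, n = 5 each), a log2FC of −1.34 ± 0.24 and an adjusted p of 0.0479 in limma. Leaving out any one library, or using edgeR, ended this call.

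Besides KIF18A, the late values of MELK, NCAPH and MAD2L1 were all below the early ones, which makes 4 of 69 genes (5.80%) against 6.05% of all genes. NCAPH and MAD2L1 were chosen for mention after their values were seen. MELK, a kinase of mitotic cells, had the lowest estimate of these genes, −1.52 ± 0.37, with 49.5, 58.6, 71.5, 52.8 and 66.6 in early and 20.9, 38.1, 30.0, 15.3 and 8.39 in late CCH and an adjusted p of 0.171 in limma. The highest was NCAPG2, a condensin subunit, with 0.85 ± 0.41, and the median log2FC of the 69 genes was −0.05.

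Of 38 regulators of the cycle, 37 were in the table and 35 passed the filter, while E2F5 and LIN37 did not. None was called, with 9 (25.7%, against 30.9% of all genes) at an unadjusted p of 0.05 or less (2 with a higher and 7 with a lower late mean) and a median log2FC of −0.22. With edgeR none was called either, and with DESeq2 CDKN2A, which encodes inhibitors of the cyclin D kinases and of MDM2, was the single call, with a lower late mean, where 6.54% of all genes were called. The lowest estimate was that of MYC, a driver of cell growth, with 137, 139.6, 128, 45.7 and 215 in early and 45.7, 62.8, 41.6, 32.7 and 123 in late CCH. The stages overlapped, and its log2FC was −1.12 ± 0.42. The highest was that of CDK7, the kinase that activates the other cycle kinases, with 0.59 ± 0.25.

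Close neighbors limit what single values can tell. In the more recent dog annotation, 19 of the 46 genes overlap another annotated gene and 19 have one within 2 kb. FOXM1 with RHNO1 and CCNA2 with BBS7 are cases of overlap. So are KIF20A with BRD8 and CDC23, PRC1 with LOC119871209, and TOP2A with LOC111097355 and LOC608297. CENPE has a gene within 2 kb, while CCND1 and CCND2 have neither. Whether reads of one gene or of its downstream extension were counted for the other depends on the strands of the pair, and was not tested.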

How the data were processed

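The labels place 5 libraries in the early and 5 in the late group. Per the study's methods and the submitters' processing notes, reads were trimmed with cutadapt, aligned with STAR to CanFam3.1 and counted with featureCounts, with multi-mapped reads split evenly and genes extended downstream by up to 2 kb for reads left unassigned. Versions and the strand setting are not given in the sources used here. The authors deposited a normalized signal per gene and library, the read count divided by a size factor. Dividing by the value of 1 read gave whole numbers (tolerance 0.001) for 100% of the 166096 values above 0. Column names show the stage but not the sample, so libraries are numbered within a stage only to name them, and 11 further columns that match no sample were not used.

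Because the unit is not a raw count, log2(value + 1) was fitted with limma, whose variance prior followed the mean. The scale understates changes of low values. Of all genes, 12397 reached 10 in 5 or more libraries and entered the fit, with BY adjustment as in the study and thresholds of 0.05 for the adjusted p and 1 for the size of the log2FC. Alternatives were TMM, RLE and column total scaling, pseudocounts of 0.5 and 5, no filter, a mean of at least 50, BH adjustment, robust variance estimates, edgeR and DESeq2 on the recovered reads, and each library left out. R 4.3.3, limma 3.58.1, edgeR 4.0.16 and DESeq2 1.42.0 were used, and the fits were tested on simulated data. In the simulation, limma called 63 of 95 genes with a true log2FC of 2 in size, and 87 of 97 with 3. Smaller nonzero changes were not simulated. Intervals are 95% intervals of limma, and floors of 3 reads cover counting error only.

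The genes and lists were chosen with earlier results of these data known. Named genes are MKI67, TOP2A, E2F1 and FOXM1, called genes, genes whose stages do not overlap, and the 3 highest and 3 lowest log2FC of each role. Of the other lists they are the called, highest and lowest genes. Other members are given by estimate only, except CDK1 and CCNA2, whose low values in early library 4 are mentioned outside this rule. Neighbors come from RefSeq for UU_Cfam_GSD_1.0, in which 46 of 46 genes matched. Promoter motifs were not analysed here.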

Additional observations from a re-analysis of the deposited data

Results flagged for a closer look

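A sample far from the others of its stage (a gap to its nearest neighbor, as a share of the range of the 5 libraries, above 0.71) was seen in 3 of 58 groups of values checked, and chance gives about 1 in 20. CCND3 had 548 in early library 2, against 327 in the next library and a range of 291, a share of 0.757. MKI67 had 23.5 in early library 3, against 10.2 in the next, a share of 0.826. In early library 3, 3 reads correspond to 2.71. The mitotic score was −0.34 in early library 4 and 0.12 in the next lowest early library, a share of 0.720.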

How the results depend on the processing

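No paired analysis was possible because no replicate number stands in the column names. None of the 46 genes was called under any alternative run. Among the other mitosis genes, the count of calls (1, KIF18A) was 0 under column total scaling, a pseudocount of 0.5, no filter and edgeR. It was also 0 when any library was left out, and 4 of 69 with BH adjustment and with DESeq2. Of all genes, 9.04% were called with BH adjustment and 6.54% with DESeq2. With BH adjustment 1 of 45 other replication genes and 1 of 35 regulators were called, and with DESeq2 1 regulator. When a library was left out, the median log2FC of the S-phase genes ranged from −0.26 (without late library 5) to 0.055 (without late library 3), and was −0.22 without late library 2. That of the mitotic genes ranged from −0.39 to −0.05. The log2FC of CCNE1 ranged from −0.36 to 0.036 (without early library 3) and that of CDK2 from −0.26 to 0.064 (without late library 3), and the cause was not tested. The 46 genes had 4 (without late library 4) to 13 (without late library 5) with an unadjusted p of at most 0.05. Over all genes, calls ranged from 49 (without early library 5) to 338 (pseudocount of 5) in limma with BY adjustment, and were 177 with edgeR and 810 with DESeq2, against 269. Of the calls, 64.0% had a higher late mean under column total scaling, against 48.7%. Of the 46 genes, MKI67, FOXM1 and GINS2 had the fewest reads over all libraries, with 187, 251 and 265.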
